A study of Rattus norvegicus with 16 samples.

Results

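Liver transcripts were compared between rat pups whose dams had received a broad mixture of contaminants (M) and pups whose dams had received a mixture of agonists of the aryl hydrocarbon receptor (AhR). The comparison rests on the 4 arrays labelled as M livers and the 4 labelled as AhR livers, 8 of the 16 arrays analysed here, and it asks which transcripts the broad mixture moves that dioxin-like agonists do not. All pups were male Sprague-Dawley rats of 21 days, raised by their own mothers, whose dams were dosed with test compounds in corn oil during gestation and lactation. The mixture of M dams held methylmercury, polychlorinated biphenyls and organochlorine pesticides and was given at 1.0 mg/kg/day. AhR dams were given non-ortho polychlorinated biphenyls, dibenzodioxins and dibenzofurans at 1.8 ng/kg/day in dioxin equivalents. 2 further groups are given beside them for orientation only: 0.5M, with the M mixture at 0.5 mg/kg/day, and C, with corn oil alone. Each array held liver RNA pooled from 2 pups of a group, labelled with Cy5, against a universal rat reference RNA labelled with Cy3.

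The doses were not matched on dioxin-like activity. The labels also give 6.3 ng/kg/day in dioxin equivalents for a group dosed with the 0.5M and the AhR mixture together, which is not analysed here. By subtraction, 4.5 ng/kg/day of that came from the 0.5M mixture, more than the AhR group received, so the M mixture was not free of dioxin-like activity. The labels do not say which pups were littermates, and p-values measure the spread between arrays, which would be too small if arrays of a group shared litters.

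The liver clears foreign compounds through receptors that sense them. The aryl hydrocarbon receptor, once bound by planar compounds such as dioxins, pairs with Arnt and switches on Cyp1a1, Cyp1a2 and other genes. The constitutive androstane receptor (CAR, gene Nr1i3) and the pregnane X receptor (PXR, gene Nr1i2) answer to bulkier compounds, among them many non-planar polychlorinated biphenyls, and induce the Cyp2b, Cyp2c and Cyp3a families. P450 enzymes oxidise their substrates with electrons from Por and cytochrome b5, and conjugating enzymes such as the glucuronosyltransferases then make the products soluble.

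A level below is the log2 ratio of liver to reference RNA on one array, and a difference is the M mean minus the AhR mean on that scale. In Cy5, 7082 to 11054 of 30367 probes were well above background on the M arrays of slide 1 and 13006 to 14589 on those of slide 2, against 8828 to 13824 and 14360 to 15066 on the AhR arrays. No probe was saturated. Each slide held 2 arrays of each group, and the slide was a term of the model. All 9 hepatocyte markers passed the filter on dim probes, and none differed past the threshold. M 2 also held skeletal muscle RNA. The mean level of 8 muscle markers was 3.27 there, against -2.24 to -1.01 on the other M arrays and -2.32 to -1.24 on the AhR arrays, and their differences of 0.88 to 1.64 did not pass the test. Stellate cell and fibroblast markers averaged 1.505 in M 2, against 0.18 to 0.29 on the other M arrays and 0.20 to 0.26 on the AhR arrays. Pancreas markers, 5 tested of 17 listed, averaged 1.26 in M 1 and 0.78 in AhR 2. The other M arrays were at 0.05 to 0.21 and the other AhR arrays at -0.04 to 0.26. The part of these cells in the results was not tested beyond the values without those arrays given below.

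Of 12128 transcripts tested, 19 (0.157%) differed between M and AhR livers at an adjusted p under 0.05 (limma, Benjamini-Hochberg over all 12128), and 16 of them (0.132%) were higher in M and 3 (0.0247%) lower. The higher ones were led by drug-metabolising P450s and included conjugating enzymes, while the lower ones were a P450 of steroid synthesis, a protease inhibitor of plasma and a hormone-regulated kinase. In all 19 the 4 M arrays lay beyond the 4 AhR arrays, which held for 4.03% of all transcripts (1.77% above and 2.26% below), and the sign was the same on both slides. The same arrays chose the 19, so this describes them and is no support. 15 of the 19 have a gene symbol, 12 higher and 3 lower. The other 4, which the name table does not name, were all higher, among them the transcripts NM_017272 (difference 1.89) and XR_086356 (1.34). An unadjusted p under 0.05 was reached by 1145 transcripts, where 606.4 are expected with no difference. For 98.2% of the tested transcripts the 95% interval of the difference lay within 2-fold either way.

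Taking same-numbered arrays as pairs in place of the slide, a block chosen from these same data, raised the count to 38 of 12128. Of these 29 were higher and 9 lower, and 18 of the 19 remained. Leaving out 1 array gave 9 calls (without AhR 4) to 21 (without M 2), with 10 without M 3. All 9 and all 10 were among the 19, but only 14 of the 21 were. Without AhR 2 the share was 12 of 17. On slide 2 alone 18 transcripts passed, 10 of them among the 19, and on slide 1 alone none did. Slide 1 alone had 540 at an unadjusted p under 0.05 (limma), fewer than the 606.4 expected with no difference. 6 named genes, Cyp1a1, Cyp2c6v1, Cyp2b2, Cyp1a2, Ceacam4 and Cyp2c7, passed whichever array was left out. Without M 1 and AhR 2, the arrays with higher pancreas markers, 12 transcripts passed, 7 of them among the 19. Of the 15 named genes 5 still passed, Cyp2c7 (adjusted p = 0.076, limma) being lost from the 6 above.

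**Figure D1:**
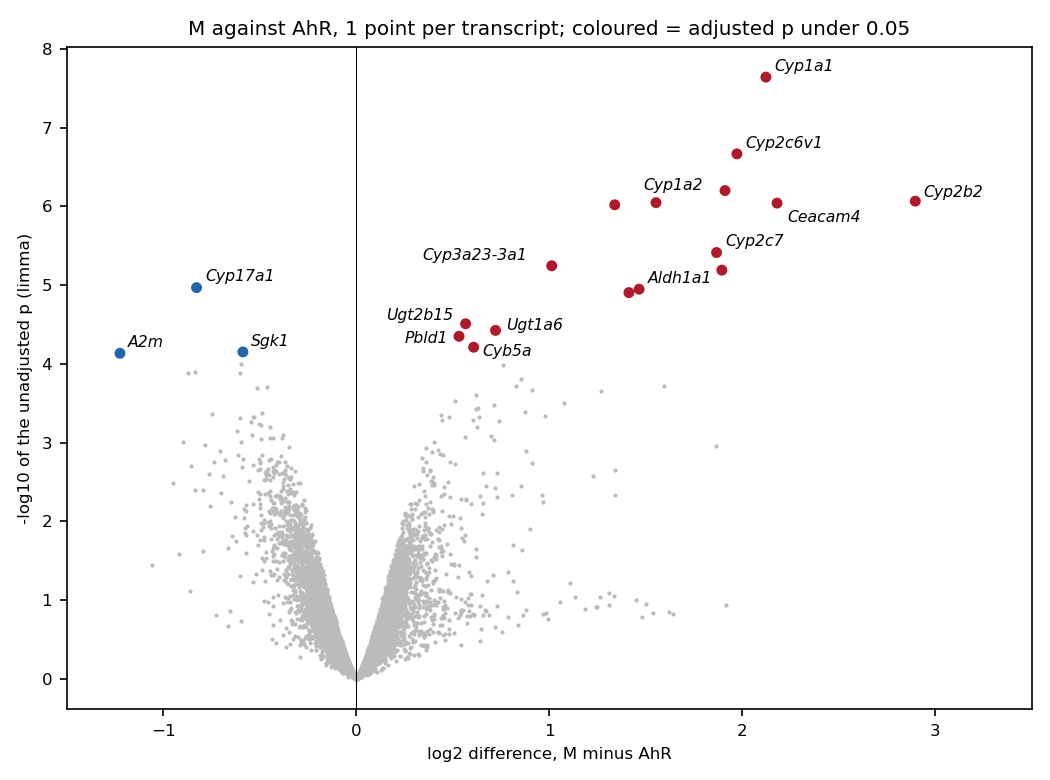
The difference between M and AhR livers (log2, x axis) is plotted against the unadjusted p of limma (as -log10, y axis) for 12128 transcripts, with the 16 called higher in M in red and the 3 called lower in blue. Cyp2b2 lies farthest to the right at 2.90, Cyp1a1 highest, and A2m farthest to the left at -1.22 among the coloured points.

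Of the genes that dioxin-like compounds induce, Cyp1a1, Cyp1a2 and Ugt1a6 were higher in M livers than in livers of the agonist group itself. Cyp1a1, the P450 most closely tied to this receptor, had levels of 2.86, 2.89, 2.94 and 3.05 in M and of 0.60, 1.12, 0.61 and 0.92 in AhR. The 4 M arrays lay close together and far above every AhR array. Cyp1a1 rose 4.35-fold (difference 2.12 ± 0.13, SE, n = 4 arrays a group, 95% interval 1.84 to 2.41, adjusted p = 2.77e-04). Cyp1a2, which oxidises caffeine and aromatic amines, had levels of 2.61, 1.99, 2.16 and 2.21 in M, against 0.50, 0.67, 0.74 and 0.86 in AhR. It rose 2.93-fold (1.55 ± 0.14, adjusted p = 0.00166), with no overlap between the groups.

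Ugt1a6, a glucuronosyltransferase for planar phenols, had levels of 1.56, 1.23, 1.43 and 1.55 in M and of 0.68, 0.65, 0.66 and 0.90 in AhR, and rose 1.65-fold (0.72 ± 0.10, adjusted p = 0.0304). On another Ugt1a6 probe the difference was 0.47, and the call was lost without any one array other than M 2 (adjusted p up to 0.164). Nqo1, a quinone reductase under both this receptor and Nrf2, differed by 0.74 ± 0.14 (adjusted p = 0.128, or 0.0141 with the replicate block), and all 4 M arrays, at 0.59 to 1.23, lay above the AhR arrays, at -0.05 to 0.37. Of 12 listed target genes 7 were tested, and 3 passed, all higher, beside 0.132% of all transcripts. With the replicate block 4 passed, beside 29 called higher of all 12128. The median difference of the 7 tested was 0.72, beside -0.003 over all transcripts. This list and those below were chosen with earlier results of these data known, so their counts and medians are descriptive only. Cyp1b1, an extrahepatic target, was well above background on 3 of 4 M arrays and on none of 4 AhR arrays, too few for the test. Ahrr, the repressor of the receptor, was well above background on no array of either group. The receptor itself, Ahr, differed by -0.01 ± 0.10.

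Genes that phenobarbital-like compounds induce included the largest difference of the comparison. Cyp2b2, a classic marker of CAR activation in the rat, had levels of 3.26, 1.82, 2.65 and 2.63 in M, against -0.57, -0.07, -0.23 and -0.35 in AhR. The lowest M array, M 2, was the one with muscle RNA, and it still lay above every AhR array. Cyp2b2 rose 7.44-fold (2.90 ± 0.26, 95% interval 2.32 to 3.48, adjusted p = 0.00166), and without M 2 the difference was 3.19. A second probe gave 2.01. Its close relative Cyp2b1 was not matched to a probe here, and a probe may also catch relatives as similar as these.

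Cyp2c6v1, a constitutive P450 of rat liver that phenobarbital raises further, had levels of 1.14, 0.74, 0.995 and 0.65 in M and of -1.34, -0.82, -0.94 and -1.27 in AhR. It rose 3.92-fold (1.97 ± 0.15, adjusted p = 0.00131). Cyp3a23-3a1, the main PXR-responsive P450 of the rat, had levels of 0.28, 0.00092, 0.55 and 0.27 in M, against -0.66, -0.73, -0.80 and -0.76 in AhR. It rose 2.02-fold (1.01 ± 0.11, adjusted p = 0.00765), and the call was lost without AhR 4 (adjusted p = 0.0561). Aldh1a1, a maker of retinoic acid from retinal, had levels of 1.999, 1.52, 1.99 and 1.76 in M and of -0.21, 0.05, 0.92 and 0.66 in AhR. The AhR arrays of Aldh1a1 were spread more widely than those of the P450s but did not reach the M arrays. It rose 2.76-fold (1.46 ± 0.18, adjusted p = 0.0114), and the call was lost without AhR 2, AhR 4 or M 3 (adjusted p up to 0.063).

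Of 22 listed targets of CAR and PXR, 17 were tested and 4 passed, all higher, beside 0.132% of all transcripts. These were Cyp2b2, Cyp2c6v1, Cyp3a23-3a1 and Aldh1a1. The replicate block added Ugt2b1 and Ces2c, which made 6, beside 29 called higher of all 12128. All 17 differences were above 0, with a median of 0.39, beside 5931 of 12128 above 0 among all transcripts. The list was chosen with earlier results of these data known, so this describes its members and is no support. Abcc3, an exporter of conjugates, was at 0.20 ± 0.11 (adjusted p = 0.624), and Cyp3a9 was well above background on no array of either group. Those that did not pass ranged from Cyp3a2 at 0.06 to Ugt2b1 at 1.27, and Alas1, which starts the synthesis of heme, differed by 0.90 ± 0.29 (adjusted p = 0.393). The transcripts of the receptors did not pass: CAR (Nr1i3) differed by -0.14 and PXR (Nr1i2) by -0.10.

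Promoters are shown for 3 of the genes that were higher in M, to set a CAR target beside targets of the aryl hydrocarbon receptor. The sequences are those of RefSeq on GRCr8, from upstream of each gene's start to shortly after it, and 11 of the 15 named genes were matched. Capitals mark GCGTG, the core letters of the element that the aryl hydrocarbon receptor binds, searched on both strands. Cyp2b2 is at chr1:90722031-90722330 on the + strand, Cyp1a2 at chr8:66978100-66978399 on the - strand and Ugt1a6 at chr9:96194768-96195067 on the + strand.
Cyp2b2: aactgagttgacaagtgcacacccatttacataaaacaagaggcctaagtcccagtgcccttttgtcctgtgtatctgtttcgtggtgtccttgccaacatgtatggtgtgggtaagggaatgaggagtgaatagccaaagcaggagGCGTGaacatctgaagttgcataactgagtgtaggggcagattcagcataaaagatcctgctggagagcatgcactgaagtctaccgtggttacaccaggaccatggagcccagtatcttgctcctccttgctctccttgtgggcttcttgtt
Cyp1a2: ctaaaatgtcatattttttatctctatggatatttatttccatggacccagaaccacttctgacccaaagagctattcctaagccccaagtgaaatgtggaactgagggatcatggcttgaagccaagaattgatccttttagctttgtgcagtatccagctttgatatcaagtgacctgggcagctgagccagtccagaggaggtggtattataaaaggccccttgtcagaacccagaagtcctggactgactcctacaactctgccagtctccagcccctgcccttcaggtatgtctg
Ugt1a6: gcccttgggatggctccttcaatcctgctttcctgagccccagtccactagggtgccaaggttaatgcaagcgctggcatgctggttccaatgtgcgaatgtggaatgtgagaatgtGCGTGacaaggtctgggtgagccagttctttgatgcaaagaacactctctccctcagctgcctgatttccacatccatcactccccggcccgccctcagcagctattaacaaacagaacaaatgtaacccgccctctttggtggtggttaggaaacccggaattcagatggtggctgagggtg
GCGTG lay at -103 in Cyp2b2 and at -133 in Ugt1a6, counted from the gene's start, and these letters were not in the Cyp1a2 window. They occurred in 3 of the 11 promoters (Pbld1 was the other), beside 31.1% of all 27457 promoters. The longer form TNGCGTG occurred in none of the 11 and in 5.12% of all promoters. The antioxidant element core TGACNNNGC, also searched on both strands, occurred in Ceacam4 and in 12.2% of all. A direct repeat with a spacer of 4 (DR4), one to which CAR and PXR bind, was searched in 2 spellings. It occurred in none of the 11, and in 0.0146% and 0% of all. Spellings so rare among all promoters would be missing from 11 in any case, so their absence decides nothing. Repeats with other spacers were not searched. The Cyp3a23-3a1 window, not shown, holds one with a spacer of 3 (tgaacttcatgaact, which is AGTTCA, TGA and AGTTCA on the other strand). Its share among all promoters was not counted. Elements farther upstream than these windows were not searched for any motif, so a gene without a hit here may still have one there.

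2 further P450s moved in opposite directions. Cyp2c7, which in adult rats is higher in female than in male liver, was below the reference RNA throughout. Its levels were -2.09, -2.83, -2.36 and -3.02 in M, against -3.98, -4.42, -4.80 and -4.58 in AhR. The probe was well above background on all 4 M and all 4 AhR arrays. Cyp2c7 rose 3.65-fold (1.87 ± 0.20, adjusted p = 0.00584), and its other probes gave 1.85 and 2.61. Cyp17a1, the 17-hydroxylase of steroid synthesis, had levels of 0.88, 0.69, 0.30 and 0.63 in M and of 1.57, 1.52, 1.31 and 1.41 in AhR. Cyp17a1 fell by 0.83 ± 0.10 on the log2 scale (1.77-fold lower, adjusted p = 0.0114), and the call was lost without AhR 1 or AhR 4 (adjusted p up to 0.063).

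Among all 52 P450s tested, 6 were higher and 1 lower, beside 0.132% and 0.0247% of all transcripts, with a median difference of 0.04. Both members of Cyp1a passed, 2 of 7 of Cyp2c, 1 of 4 of Cyp3a and 1 of 2 of Cyp2b. None of 6 in Cyp4f, 5 in Cyp2d, 4 in Cyp4a or 3 in Cyp2a passed, and the differences of Cyp2d were between -0.08 and 0.18. In Cyp2a they were between 0.40 and 1.60, the largest being Cyp2a3 (adjusted p = 0.084). With the replicate block 7 P450s were higher and 2 lower, beside 29 and 9 of all 12128 transcripts. The added ones were Cyp3a62 and Cyp8b1, the sterol 12-hydroxylase of bile acid synthesis.

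**Figure D2:**
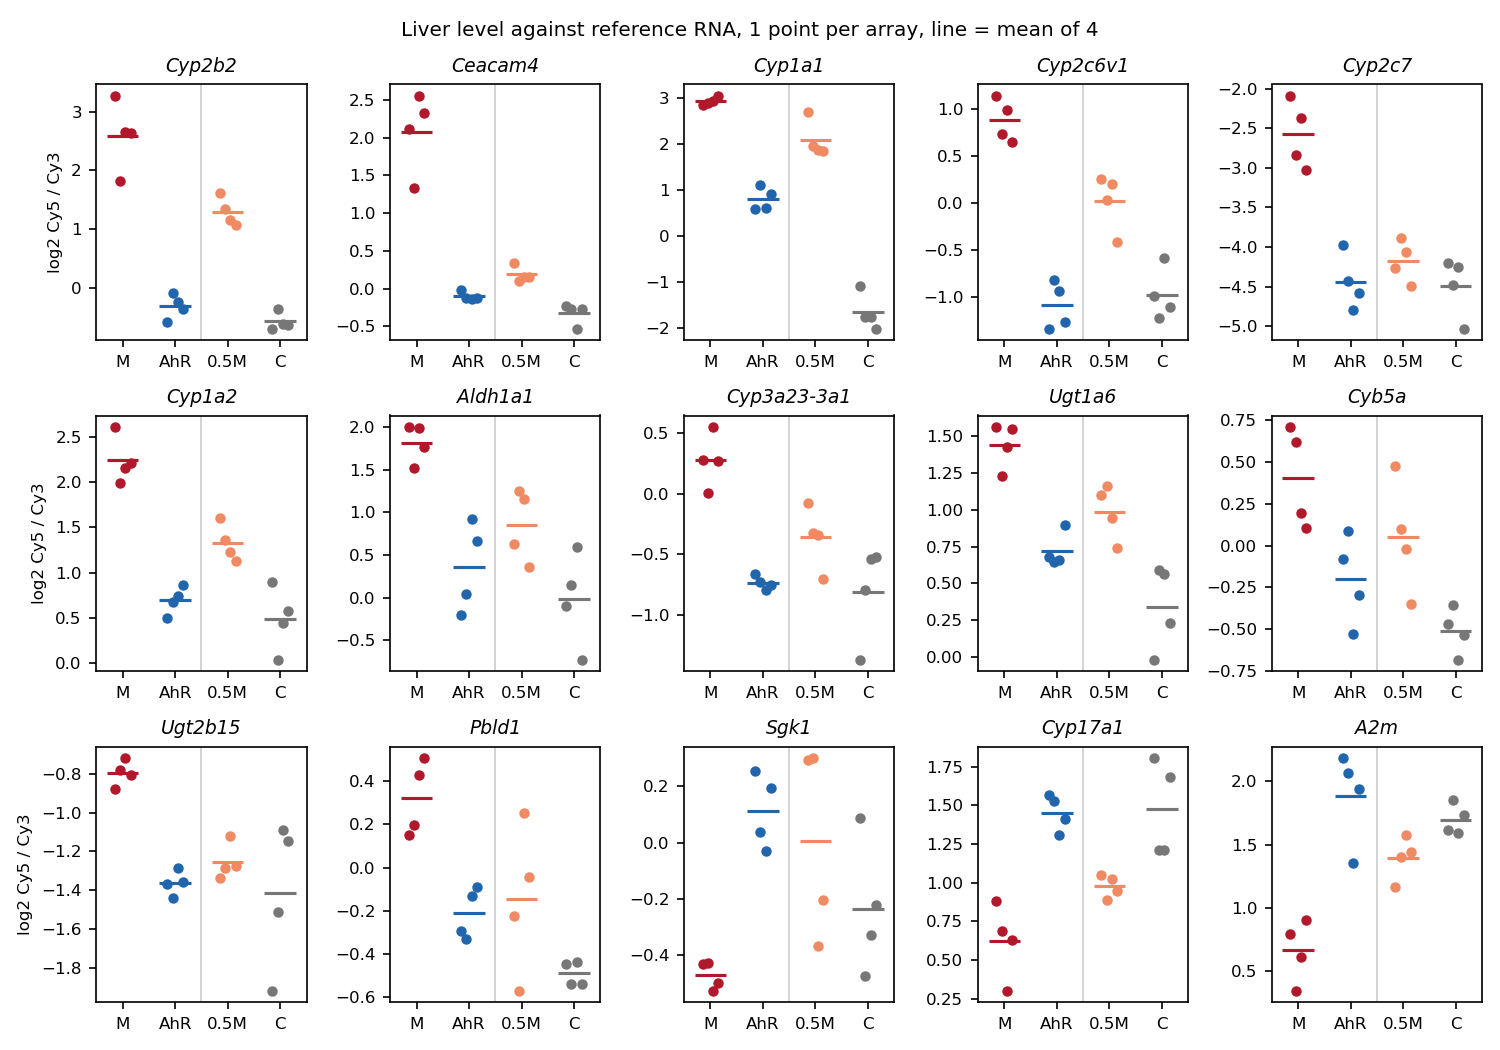
Levels (log2 Cy5 over Cy3) of the 15 named genes that differed between M and AhR are shown with 1 point per array and a line at the mean of 4, for M, AhR, 0.5M and C. In every panel the M points lie clear of the AhR points, and for Cyp1a1 the AhR points lie 2.46 above the C points on average.

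Among enzymes that work after or with the P450s, Ugt2b15 and Cyb5a also passed the test. Ugt2b15, a glucuronosyltransferase of the family that acts on steroids, had levels of -0.88, -0.78, -0.72 and -0.80 in M and of -1.37, -1.44, -1.29 and -1.36 in AhR, and rose 1.48-fold (0.57 ± 0.08, adjusted p = 0.0268). Cyb5a, cytochrome b5, had levels of 0.71, 0.62, 0.19 and 0.10 in M and of -0.08, 0.09, -0.53 and -0.29 in AhR, and rose 1.52-fold (0.61 ± 0.09, adjusted p = 0.0438, or 0.0587 with the replicate block). For Cyb5a the slides differ and the gap between the groups is narrow, 0.10 for the lowest M array against 0.09 for the highest AhR array. Neither call held when any one array was left out (adjusted p up to 0.207).

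All 9 glucuronosyltransferases tested of 12 listed had differences above 0. Of them 2 passed, beside 0.132% of all transcripts called higher, or 3 with Ugt2b1 under the replicate block, beside 29 called higher of all 12128. Of 22 glutathione transferases none passed, with a median of 0.14 and a range from -0.47 for Gstp3 to 1.34 for Gsta5. With the replicate block Gsta4, which conjugates lipid aldehydes, passed (0.71, adjusted p = 0.0204), as did Gsta1, beside 29 called higher of all 12128. Of 18 Nrf2 targets none passed (median 0.19), and 15 were above 0, beside 5931 of 12128 among all transcripts. With the block 2 passed, Gsta4 and Nqo1, beside 29 called higher of all 12128. Those that did not pass ranged from Hmox1 at -0.24 to Ephx1 at 0.88, with Gclc at -0.12 and Gsta3 at 0.48. Por, which feeds electrons to the P450s, differed by 0.16 ± 0.16. Of 6 sulfotransferases tested none passed, and Sult1b1, which sulfates thyroid hormone, differed by 0.97 (adjusted p = 0.325, or 0.014 with the block).

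Ceacam4, a member of the carcinoembryonic antigen family of adhesion molecules, had levels of 2.11, 1.33, 2.55 and 2.32 in M, against -0.02, -0.13, -0.14 and -0.12 in AhR. It rose 4.53-fold (2.18 ± 0.20, adjusted p = 0.00166), and the difference was 2.41 without M 2, the lowest M array, and 3.30 with the scanner's own log ratio. The probe was well above background on 3 of the 4 AhR arrays, whose levels lay close together. Pbld1 had levels of 0.15, 0.20, 0.43 and 0.51 in M and of -0.29, -0.33, -0.13 and -0.09 in AhR, and rose 1.45-fold (0.53 ± 0.08, adjusted p = 0.0338). That call was lost without any one array (adjusted p up to 0.182).

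2 genes outside drug metabolism were lower in M. A2m, alpha-2-macroglobulin, an acute phase protein of the rat, had levels of 0.79, 0.34, 0.61 and 0.91 in M and of 2.18, 2.07, 1.35 and 1.94 in AhR. It fell by 1.22 ± 0.18 on the log2 scale (2.34-fold lower, adjusted p = 0.0468), another probe gave -1.18, and the call was lost without any one array other than AhR 3 (adjusted p up to 0.236). Sgk1, a kinase that glucocorticoids induce, had levels of -0.43, -0.43, -0.53 and -0.50 in M and of 0.25, 0.04, -0.03 and 0.20 in AhR. It fell by 0.59 ± 0.09 on the log2 scale (1.502-fold lower, adjusted p = 0.0468), was well above background on 3 of 4 M arrays, and lost the call without any one array (adjusted p up to 0.236). With the scanner's own log ratio the Sgk1 difference was -1.51 (adjusted p = 0.356). In whole liver, fewer cells of a type and less RNA per cell cannot be told apart. A2m was the only one of 21 acute phase genes and Sgk1 the only one of 16 glucocorticoid-responsive genes tested to pass. Over all transcripts 0.0247% were called lower. The medians of these lists were -0.07 and -0.15, and Tat, Fkbp5 and Tsc22d3, which glucocorticoids also induce, were at -0.33, -0.25 and -0.02.

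The position of the AhR group relative to unexposed pups is given with all 16 arrays in 1 model. The comparisons of M and of AhR with C share the C arrays, so their values are set side by side and not correlated. Against C, Cyp1a1 differed by 4.58 in M and by 2.46 in AhR (adjusted p = 6.41e-10 and 7.01e-06), and it was the only one of the 19, and of all transcripts (0.00825%), to pass in AhR. For the other 18 the AhR difference from C was at most 0.38 in size, and in 4 of the 19 the AhR arrays did not overlap the C arrays, beside 2% of all transcripts. In M, 17 of the 19 passed against C, beside 0.322% of all, but the same M arrays chose the 19, so this count describes them and is no support. Cyp2b2 differed by 3.16 in M and 0.26 in AhR, Cyp2c6v1 by 1.86 and -0.11, Cyp1a2 by 1.76 and 0.21, and Ceacam4 by 2.40 and 0.22. Sgk1 did not pass in either, at -0.24 in M and 0.35 in AhR, and the C mean lay between those of the groups.

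The called transcripts were then looked up in arrays that had no part in choosing them, the 4 of 0.5M and the 4 of C. Like M 2, one of them, 0.5M 4, held muscle RNA, and fat markers averaged 0.90 in C 2, against -0.73 to -0.39 on the other C arrays. In 0.5M minus C, 18 of the 19 had the same sign as in M minus AhR, all 16 of the higher and 2 of the 3 lower ones, Sgk1 being the exception at 0.24 ± 0.14. An unadjusted p under 0.05 with that sign was reached by 15 of the 19, beside 6.23% of all transcripts with either sign. All 4 arrays of 0.5M lay beyond those of C, in that direction, for 10 of the 19, beside 3.03% of all. Only Cyp1a1 and Cyp2b2 passed after adjustment, and they were the only such transcripts of all 12128 (0.0165%). Cyp1a1 had levels of 2.69, 1.96, 1.88 and 1.85 in 0.5M and of -1.08, -1.76, -1.74 and -2.01 in C (difference 3.74 ± 0.18, adjusted p = 2.76e-05). Cyp2b2 had 1.62, 1.35, 1.16 and 1.08 in 0.5M and -0.69, -0.35, -0.60 and -0.62 in C (1.87 ± 0.11, adjusted p = 9.51e-05). The 16 higher transcripts had a median difference of 1.51 in M minus AhR and of 0.65 in 0.5M minus C. Cyp2c7 was among the smaller ones at the lower dose, with 0.32 ± 0.18.

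**Figure D3:**
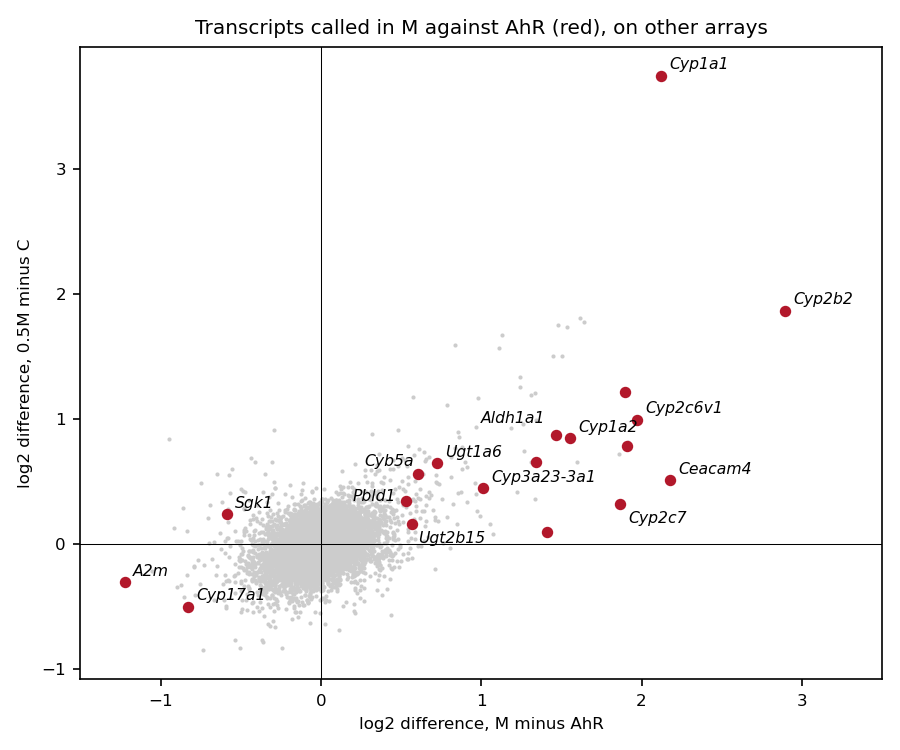
Each transcript's difference between M and AhR (log2, x axis) is set against its difference between 0.5M and C (log2, y axis), which come from separate arrays, with the 19 called in M against AhR in red. All red points but Sgk1 lie in the upper right or the lower left, and Cyp1a1 (3.74) and Cyp2b2 (1.87) lie highest. The skeletal muscle markers, high in M 2 and 0.5M 4, are among the grey points, with medians of 1.475 and 1.505.

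Genes of lipid synthesis leaned the other way without passing the test one by one. All 25 genes of cholesterol synthesis tested had differences below 0, with a median difference of -0.32, beside 6197 of 12128 below 0 and a median of -0.003 among all transcripts, and none was called. The list ranged from Lss, lanosterol synthase, at -0.84 ± 0.22 (adjusted p = 0.289) to Stard4 at -0.03. The median was -0.21 on slide 1 and -0.49 on slide 2. Relative to the AhR mean, the array medians of the list were -0.32, -0.48, -0.23 and -0.33 in M and -0.31, 0.02, 0.24 and 0.10 in AhR, so AhR 1 lay among the M arrays. In C they were -0.35, 0.0039, 0.08 and -0.55, a range that covers the M arrays. In 0.5M minus C the median was 0.18, of the opposite sign.

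Of 15 genes of fatty acid and triglyceride synthesis tested 12 were below 0, with a median of -0.27. Scd, the desaturase of stearate, was at -0.95 ± 0.24 (adjusted p = 0.265), and Fads2 at -0.76. Fasn, fatty acid synthase, was at -0.75 ± 0.14 (adjusted p = 0.126, or 0.0331 with the replicate block). It was the only one of the list to pass with that block, beside 9 called lower of all 12128. Fasn levels were -1.85, -1.47, -1.86 and -1.65 in M and -1.29, -0.74, -0.80 and -1.002 in AhR, while C, at -1.94, -1.17, -1.06 and -1.49, overlapped both. In 0.5M minus C the median of this list was 0.15 and Scd was at 0.84, so the lower dose leaned the other way here too.

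In bile acid metabolism none of 16 genes passed. Cyp7a1, the rate-limiting enzyme, was at -0.70 (adjusted p = 0.298), Abcg5, which exports sterols, at -0.92 ± 0.35, and Cyp8b1 at -0.59 ± 0.14 (adjusted p = 0.238, or 0.0362 with the replicate block). Of 12 apolipoproteins 10 were below 0 (median -0.22), but Apoa2, of high-density lipoprotein, was at 1.22 ± 0.30 (adjusted p = 0.244, or 0.014 with the block). Its levels were -1.76, -3.06, -2.01 and -3.01 in M, against -3.27, -3.88, -3.54 and -4.04 in AhR, with no overlap. Of 11 periportal hepatocyte markers 9 were below 0 (median -0.25), none called, and 8 pericentral ones had a median of 0.04.

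**Figure D4:**
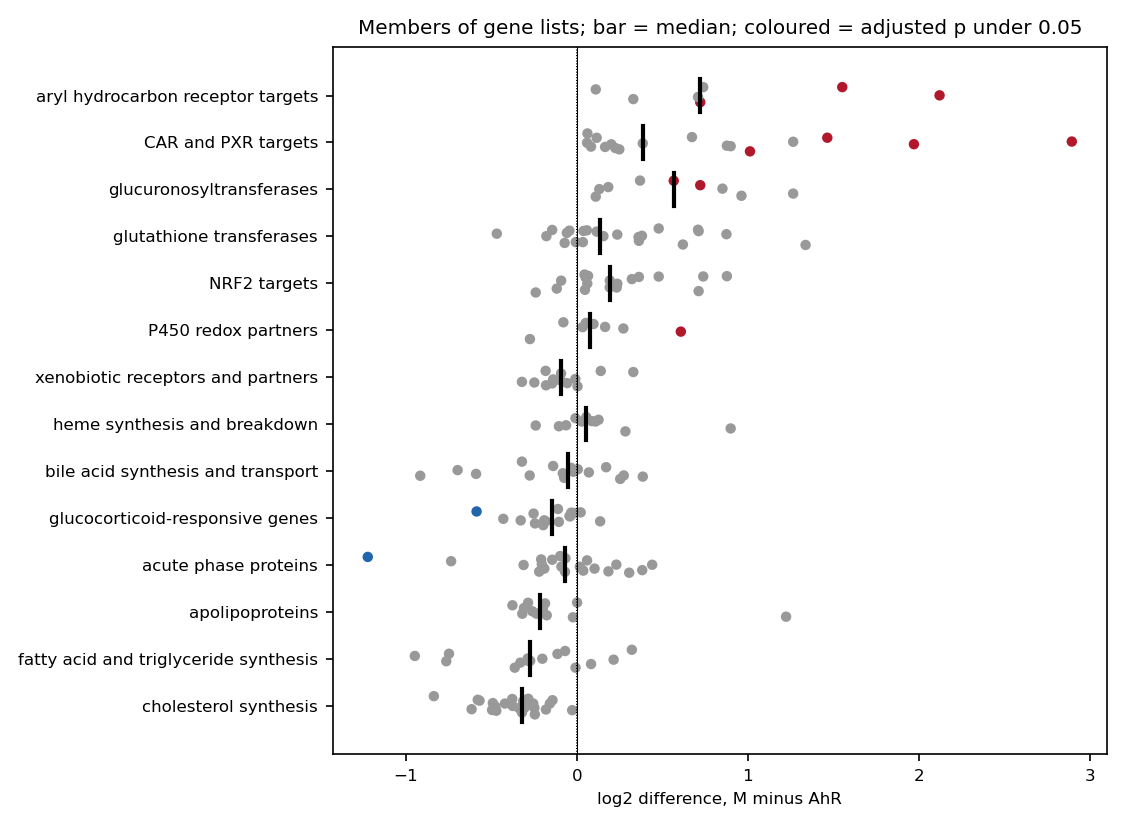
Each point is the difference between M and AhR (log2, x axis) of a tested member of 14 gene lists, with bars at the medians, a dotted line at the median of all transcripts, and members called higher or lower in red or blue. The lists were chosen with earlier results of these data known. Targets of the aryl hydrocarbon receptor, CAR and PXR and the glucuronosyltransferases lie right of 0, and cholesterol synthesis lies left of it with no called member.

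**Figure D5:**
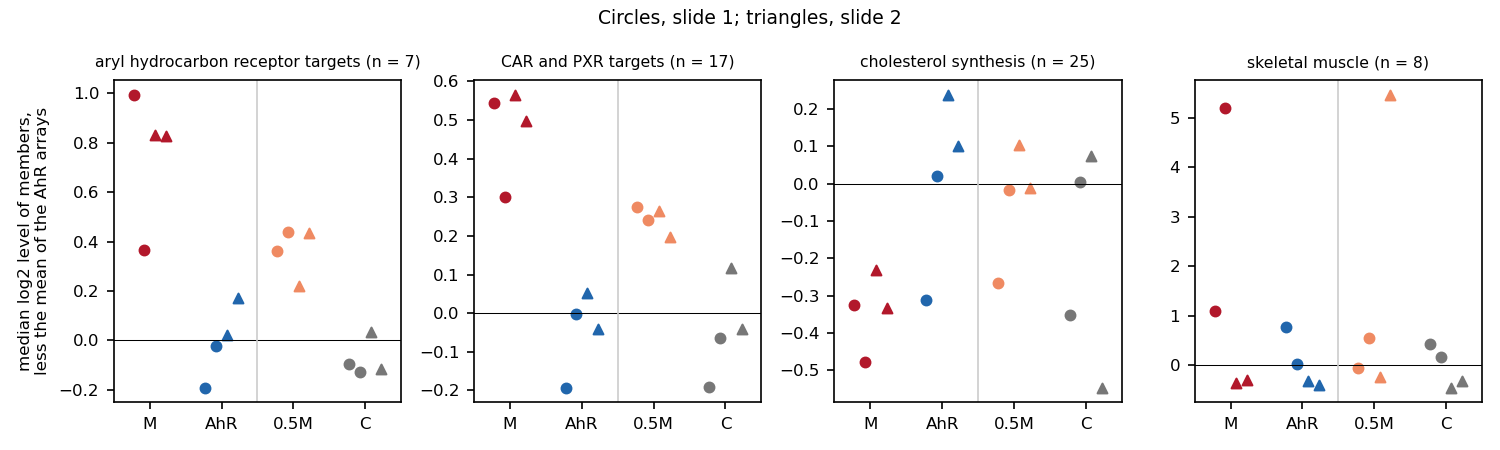
For each array, the median level of the tested members of 4 lists is plotted (log2, less each gene's mean over the AhR arrays, y axis) for M, AhR, 0.5M and C, with circles for slide 1 and triangles for slide 2. The lists were chosen with earlier results of these data known. The M arrays, at 0.37 to 0.995 for receptor targets and 0.30 to 0.57 for CAR and PXR targets, lie above all AhR arrays, whereas the M and AhR arrays overlap for cholesterol synthesis and the muscle markers stand out in M 2 and 0.5M 4.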

How the data were processed

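The deposited scan files, 1 per array, hold scanner intensity for 62976 spots in both colours, written by Agilent Feature Extraction 10.7.3.1 per the file headers. Per the file headers, their LogRatio column is on the log10 scale and their quality marks, of the unit other, are 0 or 1. A table of log2 values was deposited too, by steps not given in the sources used here. Each of its columns correlated at 0.965 to 0.991 with the log2 Cy5 over Cy3 of its own array and at most 0.882 with another, with medians near 0, and it was used as an alternative.

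Median signals were background-corrected (normexp, offset 50) and loess-normalized within arrays with limma 3.58.1 in R 4.3.3 with the data.table package (version 1.17.8), with control spots at weight 0 and outlier spots left out. No dyes were swapped. The offset of 50 shrinks folds of dim probes. Probes well above background in Cy5, in at least 50% of their spots, on at least 4 of the 8 arrays were kept (13350 of 30367, less 9 with missing values). RefSeq accessions gave a symbol to 18004 probes and none to 12363, and the brightest probe of a gene was used. Names came from an annotation of GRCr8, not the rn4 of the file headers, so no probe coordinates are given. P450 and glucuronosyltransferase relatives may share a probe.

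M and AhR were fitted with lmFit, a slide term and eBayes. Tests were two-sided, adjusted by Benjamini-Hochberg over all 12128 transcripts, with a threshold of 0.05. Same-numbered arrays, which also share a slide, were checked for pairing. Their deviations from the group means correlated at 0.464, 0.136, 0.339 and 0.342 for numbers 1 to 4. With the slide also removed the values were 0.209, 0.209, 0.23 and 0.23. Each group had 2 arrays on a slide, so their deviations then mirror each other and the values of a slide are equal by construction. The replicate numbers are thus not separate checks. Values with the replicate number as a block are given as an alternative, and their smaller p-values (limma) are no added support. The pairing comes from these data and not from the labels, which say only that each number is a biological replicate. The precision is limited by the number of arrays, with a median standard error of 0.104. The script was tested on simulated data.

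The comparison, its gene lists (31 pathway and 12 marker lists) and its alternatives were chosen with earlier results of these data known. Named were all called genes with a symbol, 12 anchor genes and, from each list, up to 3 called members or else the one with the smallest p, 48 genes in all. NM_017272 and XR_086356 fall outside that rule, as do other list members given with values, and were chosen after their values were seen. Alternatives changed the background correction, normalization, value source, filter, probe rule, block, weights and arrays.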

Additional observations from a re-analysis of the deposited data

Results flagged for a closer look

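Among 48 named genes, 96 groups of 4 arrays were examined for an array far from the others by Dixon's criterion, which chance exceeds in about 1 in 20 groups, and 5 exceeded it. Ceacam4 was at -0.0236 in AhR 1, with the nearest AhR array at -0.12. Ugt1a6 was at 0.900 in AhR 4, against 0.68 for the nearest. Mvd, of cholesterol synthesis, was at 0.41 in M 1 and 0.05 in the nearest M array. Pklr, liver pyruvate kinase, was at -1.42 in M 2, the array with muscle RNA, against -1.03 for the nearest. Ccnd1, cyclin D1, was at -0.39 in M 1, among the AhR arrays, with the nearest M array at -0.94.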

How the results depend on the processing

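The count of 19 transcripts that differed between M and AhR was 16 to 20 without background subtraction, with the deposited table, an offset of 10 (chosen after seeing the data), other filters, Aquantile (which leaves log ratios as they are), the mean over probes, no block or slide 2 alone. The members changed more than the count. Of the 19, 10 were kept on slide 2 alone, 13 with the offset of 10, 16 with the filter on all 8 arrays and 17 with no block. The others kept 18 or 19. It was 31 with all 16 arrays in 1 model, 38 with the replicate block, 39 with array weights, 12 without M 1 and AhR 2, and 10 with the scanner's own log ratio. It was 0 on slide 1 alone and 0 with median centring in place of loess. Slide 2 alone has 4 arrays, as slide 1 does, and gave 18. An unadjusted p under 0.05 (limma) was reached by 1506 transcripts on slide 2 and by 540 on slide 1. With median centring 83 transcripts had an unadjusted p under 0.05 by limma, fewer than the 606.4 expected with no difference. Cyp2b2 was still at 2.65 there and Cyp1a1 at 1.89. The median difference of all transcripts was -0.08 there. Leaving out 1 array gave 9 to 21. Without M 1, M 2 and AhR 2 the fit rests on slide 2 and gives the same 18 as that slide. Fewer arrays entered some fits, and the cause of these differences was not tested. Cyp1a1, Cyp2c6v1, Cyp2b2, Cyp1a2 and Ceacam4 passed under every alternative in which they were tested except median centring and slide 1 alone (highest adjusted p 0.0407). The blocked fit changed no call other than those given with the results and those of Afp, Cesl1, Fam89a, Qsox1 and unnamed transcripts.

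Of 1188 values of named genes under an alternative, 1034 kept their direction and their side of the threshold, 132 no longer passed, 16 newly passed and 6 reversed, all of genes not called: Vsig4 was at 0.0739 on slide 1 alone, Kdr at 0.12 and Slc4a1 at 0.0389 on slide 2 alone and without M 1, M 2 and AhR 2, and Krt7 at -0.0027 without M 1. In 0.5M minus C the number with the same sign was 17 without C 4 and 18 otherwise, the replicate block included.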

Other observations

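Several gene groups not described above held no called member. Among 74 transcripts of the mitochondrial respiratory chain the median difference between M and AhR was -0.005, with a range of -0.31 to 0.25. Of 21 genes of the unfolded protein response 16 were below 0 (median -0.03), the lowest being Herpud1, of protein degradation at the endoplasmic reticulum, at -0.50 ± 0.12 (adjusted p = 0.238). Of 25 cell cycle genes 18 were above 0 (median 0.07), although Ccnd1 was at -0.49. Of 26 genes of fatty acid oxidation and ketone synthesis 19 were below 0 (median -0.15), with Cyp4a1, a target of Ppara, at -0.51 ± 0.12 (adjusted p = 0.238). Abcc5, an exporter of organic anions, was at -0.60 ± 0.10 (adjusted p = 0.0667), with all 4 M arrays below the AhR arrays, and passed with array weights (adjusted p = 0.0485) and without AhR 3 (adjusted p = 0.0281).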
